A study of Mus musculus with 18 samples.

Results

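The 10 genes described here belong to the transcriptional program of ATF4, the transcription factor of the integrated stress response, which includes genes of amino acid supply. They are Atf4 itself, its stress-linked targets Ddit3, Trib3 and Chac1, the asparagine synthetase gene Asns, the serine and one-carbon genes Phgdh, Psat1, Shmt2 and Mthfd2, and the amino acid transporter gene Slc7a5. They were chosen by name, by a rule that uses no measured value but with earlier results of these data known, and are 10 of the 55401 gene identifiers in the count table. All 10 passed the filter on low counts in each series of libraries and were tested in every comparison.

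When amino acids run short or unfolded proteins accumulate, kinases such as GCN2 and PERK phosphorylate the initiation factor eIF2α, general translation falls, and translation of the Atf4 mRNA increases. ATF4 then pairs with other bZIP proteins, among them the C/EBP family, and binds composite C/EBP-ATF sites in genes for amino acid synthesis, transport and tRNA charging. The pathway is controlled in large part at translation, so the abundance of the Atf4 mRNA is a limited readout of it. In growing fibroblasts, mTORC1, the kinase that activates the ribosomal S6 kinases S6K1 and S6K2, is known to raise ATF4 and its amino acid and serine synthesis targets.

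RNA was sequenced from mouse embryonic fibroblasts (MEFs), primary fibroblasts grown from embryos after the head and viscera were removed, in 6 groups of 3 libraries. The S6K1 series held S6K1 WT cells that carried the empty retroviral vector (EV), S6K1 WT cells expressing constitutively active RAS, and S6K1 KO cells expressing RAS. The S6K1/S6K2 series held WT cells with EV, WT cells expressing RAS, and S6K1/S6K2 double knockout (DKO) cells expressing RAS. RAS drives these primary cells into oncogene-induced senescence, and each series asks what RAS does to WT cells and what the loss of S6K does in RAS-expressing cells.

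All groups were transduced and drug-selected cultures, per the study's methods. The S6K1 KO and WT cells came from littermates of several mothers, whereas the WT cells set against the DKO came from WT mothers of an earlier breeding stage, so genotype and breeding history cannot be told apart in the S6K1/S6K2 series. No KO or DKO culture with EV was analysed here, so the effect of losing S6K without RAS was not measured. Total counts were 8319445 to 14402442 per library.

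The labels were checked against the targeted genes, with levels as depth-normalised counts (CPM) scaled by TMM within a series. Rps6kb1, the S6K1 gene, was at 30.6 ± 6.75 CPM in S6K1 KO RAS and 69.0 ± 6.74 in S6K1 WT RAS cells (mean ± SD, n = 3). Rps6kb2, the S6K2 gene, was at 2.84 ± 0.186 CPM in DKO RAS and 25.8 ± 2.68 in the matching WT RAS cells. The endogenous Hras gene, whose reads may include the transgene, was at 118 ± 2.34 CPM with RAS and 61.8 ± 10.9 with EV in the S6K1 series. The 10 fibroblast markers were above 1 CPM in every library. Macrophage markers, 12 genes including Csf1r and C1qa, were also present, and their summed level ran from 73.5 CPM in a DKO RAS library to 3679 CPM in a S6K1 WT RAS library, whereas endothelial markers summed to at most 13.6 CPM. Summed epithelial markers, Krt8 and Krt18 among them, were at 8.05 to 18.2 CPM with EV and 79.1 to 209 CPM with RAS, and their part in the comparisons of RAS with EV was not tested. In bulk RNA, fewer cells of a type and less RNA per cell cannot be told apart.

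The promoters were read for the composite C/EBP-ATF word TGATGNAA or its reverse complement TTNCATCA, in RefSeq windows of build GRCm38.p6 that span 250 bases before to 50 bases after a transcription start. Windows were given for 9 of the 10 genes (not for Slc7a5), and 3 of those 9, Asns, Chac1 and Trib3, held the word. Over all genes with a window, 1219 of 27025 (4.51%) held it. Among the related gene lists taken up below, it was in 5 of 11 genes of the tRNA synthetase list, 3 of 8 bZIP partners and 3 of 12 serine, one-carbon and proline genes. It was in 2 of 9 amino acid transporters, 2 of 11 stress and feedback targets, 1 of 10 chaperone and folding genes and 0 of 6 eIF2α kinases and phosphatase subunits. The 3 matches are shown because Trib3 was lower with RAS in both series while Asns was not. Each line is 30 bases, 5′ to 3′ on the gene's own strand, with the 8 bases of the word in capitals.
Asns: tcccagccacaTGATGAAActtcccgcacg
Chac1: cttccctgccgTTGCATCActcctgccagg
Trib3: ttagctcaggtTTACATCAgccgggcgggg
The Asns stretch lies at chr6:7693214-7693243 on the minus strand, in the forward orientation and 23 to 16 bases before the start of transcription. In Chac1 the word is in the reverse orientation, 193 to 186 bases upstream, in the stretch chr2:119351038-119351067 on the plus strand. In Trib3 (chr2:152344028-152344057, minus strand) it is also reversed and sits at bases 15 to 22 of the transcribed sequence. These are matches of letters, and binding was not measured.

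In the fit without pairing of libraries, Trib3 was called lower with RAS in WT cells of both series and Ddit3 in the S6K1/S6K2 series only. Chac1, the other stress-linked target, was called in neither. Asns, Phgdh and Psat1 were not called in that fit and had higher means with RAS in both series. Trib3 was the 1 gene of the 10 to pass the test in both series. In the S6K1 series 1 of the 10 genes was called, against 13.2% of all genes tested. In the S6K1/S6K2 series 2 were called, against 26.3%, so the share of called genes was near that of the transcriptome in each, in this fit. With same-numbered libraries paired, as described below, 6 were called in the S6K1 series, against 36.2% of all genes, with Asns and Psat1 among them as higher. The test was edgeR's quasi-likelihood test with Benjamini-Hochberg adjustment over all genes and a threshold of 0.05. The median log2 fold change of the 10 genes was 0.13 in the S6K1 series and -0.57 in the S6K1/S6K2 series, where the medians over all genes tested were 0.0018 and -0.024. Both medians rest on single libraries. Without S6K1/S6K2 WT EV replicate 1 the second was -0.18. The first was 0.22 without S6K1 WT EV replicate 1, -0.016 without WT EV replicate 3 and, with a WT RAS library left out, -0.032 (replicate 1) or 0.28 (replicate 3).

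**Figure D1:**
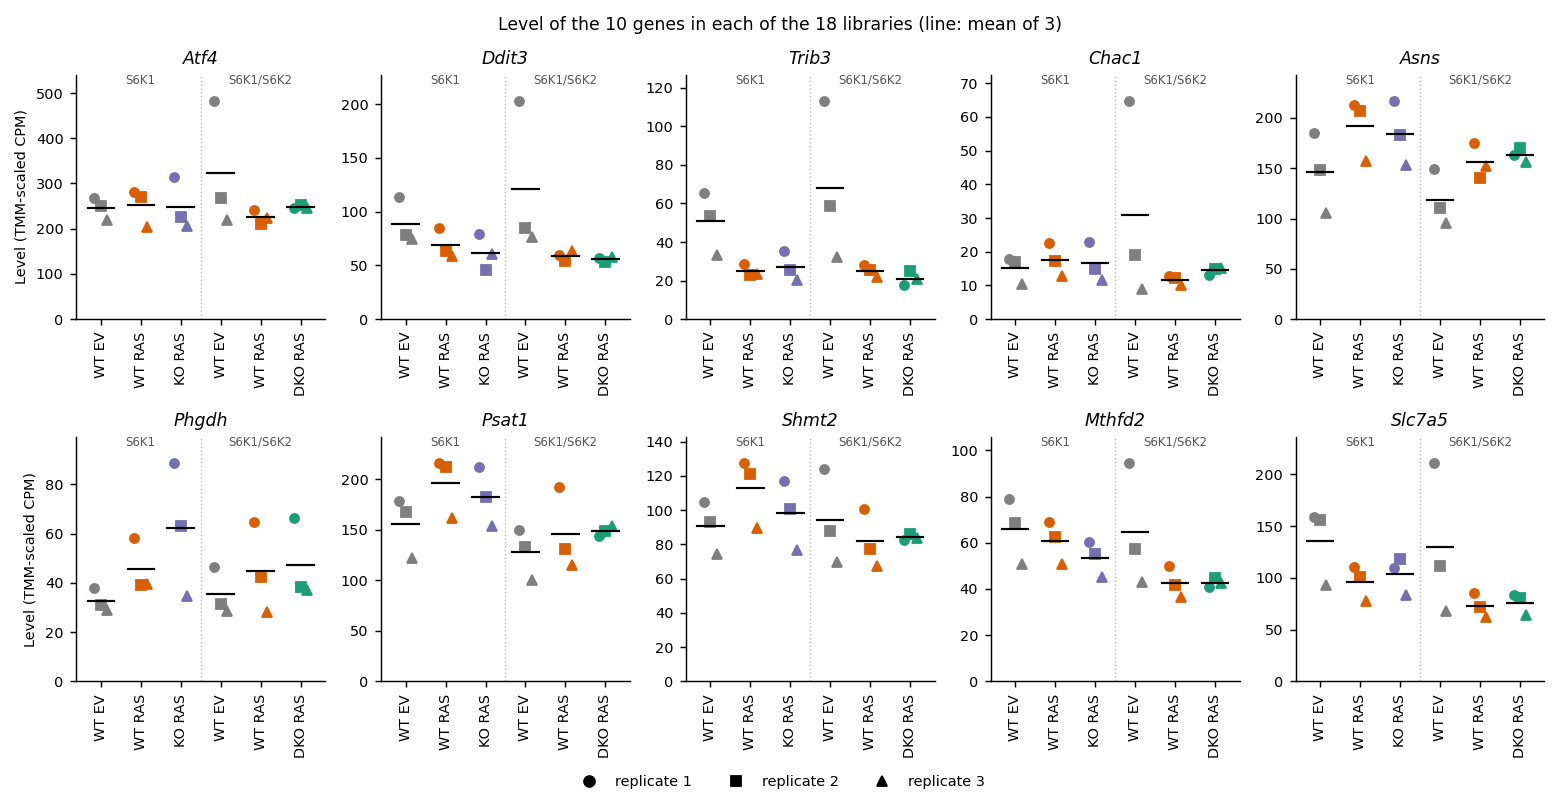
Level of each of the 10 genes (y axis, TMM-scaled CPM, from 0) in the 6 groups, with 1 point per library, marker shape for the replicate number and a line at the mean of 3. Trib3 was at 33.4 to 65.4 CPM with EV and 23.1 to 28.9 CPM with RAS in S6K1 WT cells, and S6K1/S6K2 WT EV replicate 1 was the highest library of the series for Atf4, Ddit3, Trib3, Chac1, Shmt2, Mthfd2 and Slc7a5.

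Trib3 (ENSMUSG00000032715.9, chr2:152337425-152344060) encodes a pseudokinase that is induced by ATF4 and feeds back on it. In S6K1 WT cells it was at 65.4, 53.7 and 33.4 CPM with EV and at 28.9, 23.1 and 23.6 CPM with RAS. Every EV library stood above every RAS library. The fold was 0.495 (log2 fold change -1.01, SE 0.27, adjusted p = 0.0364, edgeR). The share of all genes whose groups did not overlap was not computed, here or in the other comparisons.
Trib3 in S6K1/S6K2 WT cells was at 113, 58.4 and 32.2 CPM with EV and at 28.0, 25.7 and 21.8 CPM with RAS. The groups again did not overlap, and the EV libraries were far more spread than the RAS libraries. The log2 fold change was -1.43 (SE 0.37, adjusted p = 0.0198, edgeR), and -0.85 (adjusted p = 0.0349) without S6K1/S6K2 WT EV replicate 1.
The call in the S6K1 series was lost when any 1 of 6 libraries was left out, namely WT EV replicates 1 and 2, WT RAS replicates 1, 2 and 3 and KO RAS replicate 2, with adjusted p from 0.0583 to 0.136 and log2 fold changes from -1.12 to -0.80. It did not pass either in a fit of all 18 libraries together. In the S6K1/S6K2 series it was lost without WT RAS replicate 2 (adjusted p = 0.0655) or WT RAS replicate 3 (adjusted p = 0.0744).

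Ddit3 (ENSMUSG00000025408.15, chr10:127290793-127296291) encodes CHOP, a bZIP factor linked to cell death under prolonged stress. With EV it was at 203, 84.6 and 76.3 CPM in S6K1/S6K2 WT cells, and with RAS at 59.5, 53.7 and 63.1 CPM. The groups did not overlap, and the first EV library was far above the rest. The fold was 0.485 (log2 fold change -1.05, SE 0.32, adjusted p = 0.0369, edgeR). Without WT EV replicate 1 the log2 fold change shrank to -0.45 and the call remained (adjusted p = 0.0285). It was lost without any 1 of the 3 WT RAS or the 3 DKO RAS libraries, with adjusted p from 0.0506 to 0.118, and in a fit of the 6 compared libraries alone.
In the S6K1 series Ddit3 was at 114, 78.2 and 74.2 CPM with EV and 84.4, 63.4 and 58.6 CPM with RAS, with overlap between the groups. Within each replicate number the RAS library was the lower, and the log2 fold change was -0.37 (SE 0.24, adjusted p = 0.381, edgeR).

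Chac1 (ENSMUSG00000027313.3, chr2:119351242-119354326), which encodes a glutathione-degrading enzyme, was at 7.17 to 18.9 CPM per kilobase of exon over the 6 group means, against 43.3 to 70.3 for Asns. With EV it was at 64.8, 18.9 and 8.92 CPM in S6K1/S6K2 WT cells and with RAS at 12.8, 12.3 and 10.2 CPM. WT EV replicate 1 was far above the rest, and WT EV replicate 3 was below all 3 RAS libraries. The log2 fold change of -1.40 (SE 0.56) did not pass (adjusted p = 0.0947, edgeR), and it was -0.25 without WT EV replicate 1. DESeq2 called it. In S6K1 WT cells Chac1 was at 17.96, 16.8 and 10.4 CPM with EV and at 22.7, 17.2 and 12.8 CPM with RAS, and the log2 difference was 0.22 (SE 0.31, adjusted p = 0.707).

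Atf4 (ENSMUSG00000042406.8, chr15:80255184-80257545) was the most abundant of the 10 per kilobase, at 130 to 188 CPM per kilobase over the 6 group means. In S6K1 WT cells it was at 268, 251 and 220 CPM with EV and 282, 269 and 205 CPM with RAS. These ranges overlapped almost entirely (log2 fold change 0.03, 95% interval -0.39 to 0.46, adjusted p = 0.930, edgeR). Levels in S6K1/S6K2 WT cells were 483, 268 and 220 CPM with EV and 242, 210 and 223 CPM with RAS. WT EV replicate 1 was far above the rest, replicate 2 was also above every RAS library, and replicate 3 lay within the RAS range. The log2 difference of -0.53 (SE 0.25, adjusted p = 0.140, edgeR) was -0.12 without WT EV replicate 1.

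Asns (ENSMUSG00000029752.12, chr6:7675165-7693209) encodes the enzyme that makes asparagine from aspartate and glutamine and is among the best studied ATF4 targets. In S6K1 WT cells it was at 185, 148 and 106 CPM with EV and 213, 207 and 157 CPM with RAS. Within each replicate number the RAS library was the higher, while the groups overlapped. The log2 fold change was 0.39 (SE 0.22, adjusted p = 0.295, edgeR).
Asns in S6K1/S6K2 WT cells was at 149, 111 and 95.4 CPM with EV and 175, 140 and 152 CPM with RAS, a log2 difference of 0.40 (SE 0.17, adjusted p = 0.105). The RAS library was again the higher within each number. Without WT EV replicate 1 the difference was 0.59 and passed (adjusted p = 0.0151).

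Phgdh (ENSMUSG00000053398.11, chr3:98313171-98339969) and Psat1 (ENSMUSG00000024640.9, chr19:15905123-15925059) encode the first and the second enzyme on the path from glycolysis to serine. Phgdh was at 38.1, 31.1 and 28.9 CPM with EV and 58.3, 39.1 and 39.4 CPM with RAS in S6K1 WT cells. The groups were apart, yet the log2 fold change of 0.48 (SE 0.31) did not pass (adjusted p = 0.377, edgeR). In S6K1/S6K2 WT cells it was at 46.3, 31.3 and 28.6 CPM with EV and 64.6, 42.4 and 28.0 CPM with RAS, a log2 difference of 0.34 (SE 0.33, adjusted p = 0.464).
Psat1 was at 178, 167 and 122 CPM with EV and 216, 212 and 162 CPM with RAS in S6K1 WT cells, and its log2 fold change was 0.33 (SE 0.19, adjusted p = 0.295). Values overlapped although each RAS library exceeded the EV library of the same number. Its change in S6K1/S6K2 WT cells was 0.20 (SE 0.20, adjusted p = 0.50).

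Shmt2 (ENSMUSG00000025403.5, chr10:127517123-127522444) and Mthfd2 (ENSMUSG00000005667.8, chr6:83305704-83326011) act in mitochondria, where SHMT2 splits serine to glycine and MTHFD2 oxidizes the one-carbon unit released. Shmt2 was at 105, 92.9 and 74.5 CPM with EV and 128, 121 and 89.5 CPM with RAS in S6K1 WT cells. In S6K1/S6K2 WT cells it was at 124, 87.6 and 70.0 CPM with EV and 101, 77.0 and 67.6 CPM with RAS. RAS was the higher in all 3 numbered pairs of the first series and the lower in all 3 of the second. The test of that difference between the series gave -0.53 on the log2 scale (SE 0.31) and did not pass (adjusted p = 0.480, edgeR).
Mthfd2 was at 79.0, 68.6 and 50.8 CPM with EV and 69.0, 62.3 and 51.0 CPM with RAS in S6K1 WT cells, a log2 difference of -0.12 (SE 0.19, adjusted p = 0.723). In S6K1/S6K2 WT cells the change was -0.60 (SE 0.25, adjusted p = 0.103), and -0.23 without WT EV replicate 1. Without WT EV replicate 3, in contrast, Mthfd2, Slc7a5, Chac1 and Atf4 were all called lower with RAS, for 6 called members in all. Calls over all genes also rose in that fit, to 4199 of 14205 from 3646 of 13881 with no library left out.

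Slc7a5 (ENSMUSG00000040010.10, chr8:121881146-121907686) encodes LAT1, the light chain of the exchanger that imports leucine and other large neutral amino acids. It was at 159, 156 and 92.7 CPM with EV and 111, 101 and 77.4 CPM with RAS in S6K1 WT cells. In S6K1/S6K2 WT cells it was at 211, 111 and 67.9 CPM with EV and 85.6, 71.5 and 62.1 CPM with RAS. The RAS library was the lower in each of the 6 numbered pairs, and the groups overlapped in both series. The log2 fold changes were -0.50 (SE 0.23, adjusted p = 0.211) and -0.83 (SE 0.34, adjusted p = 0.0953, edgeR), the latter -0.30 without WT EV replicate 1.

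**Figure D2:**
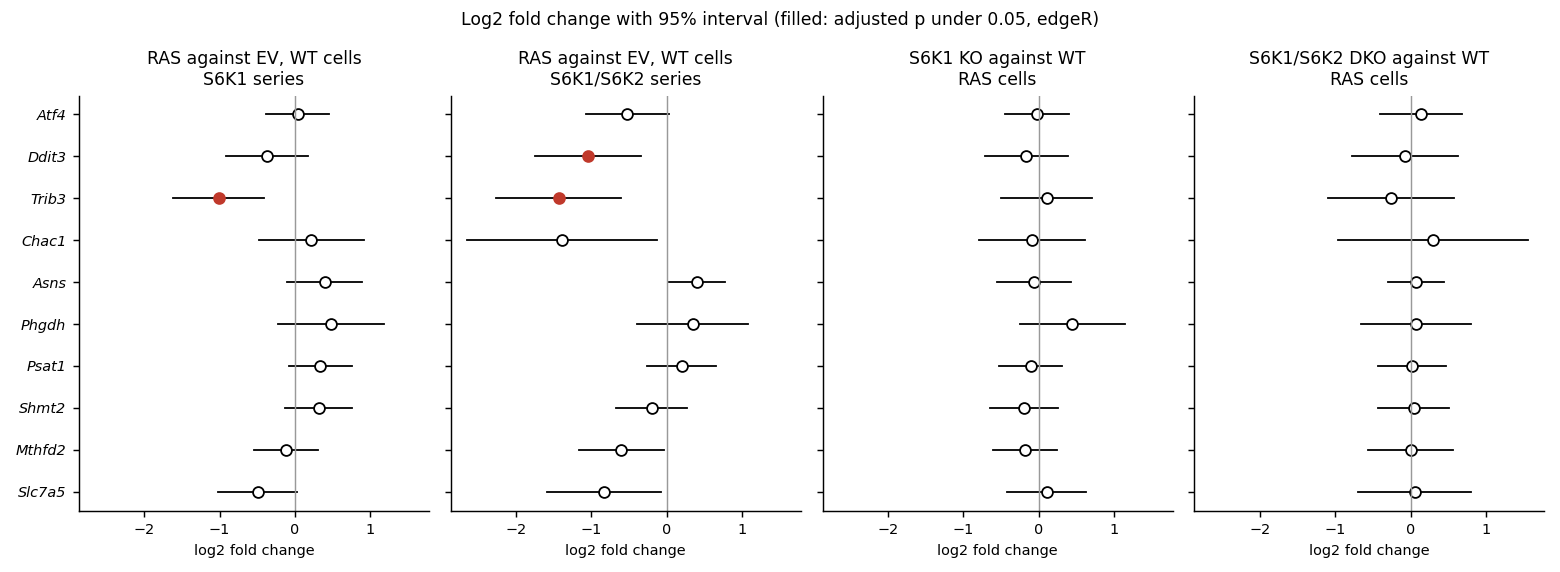
Log2 fold change (x axis) with its 95% interval for the 10 genes in 4 comparisons, from edgeR with 3 libraries per group, where filled points passed an adjusted p of 0.05. Trib3 in both comparisons of RAS with EV and Ddit3 in the S6K1/S6K2 series are filled, and no point is filled where KO or DKO cells are set against WT cells. The fit drawn has no pairing of libraries. With pairing, Asns, Psat1, Shmt2, Slc7a5 and Ddit3 were also called with RAS in the S6K1 series.

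Libraries with the same replicate number deviated together in the RAS-EV pairs of both series, and with that number as a block more of the 10 genes passed in the S6K1 series. There 6 of the 10 were called, against 36.2% of all genes tested. Asns (log2 fold change 0.42, adjusted p = 0.00524), Psat1 (0.34, adjusted p = 0.00602) and Shmt2 (0.31, adjusted p = 0.00796) were higher with RAS. Trib3 (-0.97, adjusted p = 0.000422), Slc7a5 (-0.47, adjusted p = 0.00327) and Ddit3 (-0.36, adjusted p = 0.0230, edgeR) were lower. For the S6K1/S6K2 series the block gave 3 calls, all lower with RAS, against 28.7% of all genes, and added Slc7a5 (-0.72, adjusted p = 0.0498) to Trib3 and Ddit3. That fit also ties the DKO libraries by a number that does not pair them. With the block on the 6 compared libraries alone, 1 gene was called, against 26.0% of all genes. This was Trib3 (-1.25, adjusted p = 0.0209), while Ddit3 (adjusted p = 0.0657) and Slc7a5 (adjusted p = 0.0700) did not pass. No member passed the test of a difference in RAS effect between the series (0 of 10 called by edgeR, against 0.0% of all genes tested). At an unadjusted p under 0.05 the difference for 1 member, Chac1, passed (-1.62, SE 0.70), against 12.6% of all genes, and DESeq2 called 0 of the 10. Without S6K1/S6K2 WT EV replicate 1 the count at that unadjusted threshold was 0.

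Set against Asns within the same library, several of the other genes separated EV from RAS libraries, a description chosen after the values were seen. The log2 ratio of Asns to Trib3 was 1.46 to 1.66 with EV and 2.73 to 3.16 with RAS in S6K1 WT cells, and 0.39 to 1.57 with EV and 2.44 to 2.81 with RAS in S6K1/S6K2 WT cells. All 6 EV libraries were below all 12 RAS libraries, KO and DKO included. Asns to Slc7a5 gave -0.50 to 0.49 with EV over both series and 0.62 to 1.30 with RAS over all 4 RAS groups. The same held for Ddit3 and Mthfd2. By contrast, the ratio of Asns to Psat1 stayed between -0.26 and 0.40 in every library, and its EV and RAS ranges overlapped in both series. Over both series together, the EV and RAS ranges also overlapped for the ratios to Chac1, Phgdh, Shmt2 and Atf4. For Shmt2 they were 0.26 to 0.81 with EV and 0.74 to 1.17 with RAS. The share of all genes whose ratio to Asns separates the libraries in this way was not computed.

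**Figure D3:**
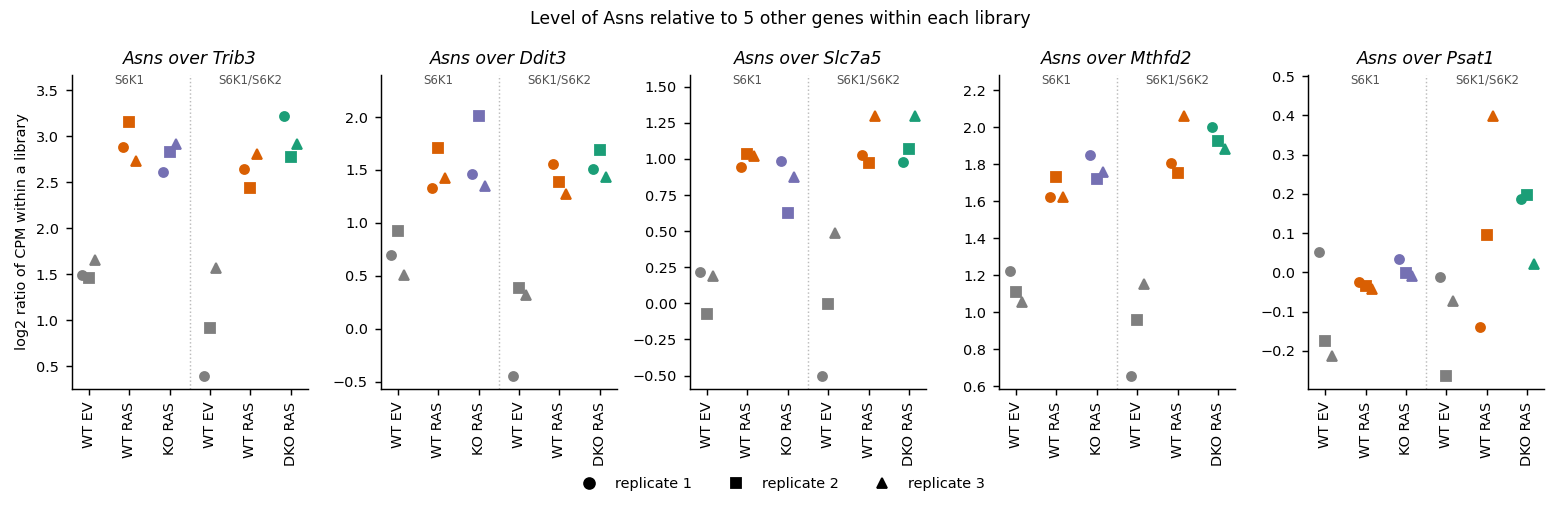
Log2 ratio of the CPM of Asns to that of 5 other genes within each library (y axis), by group, with marker shape for the replicate number. The ratios to Chac1, Phgdh, Shmt2 and Atf4, whose EV and RAS ranges overlapped over both series, are not drawn. For Trib3, Ddit3, Slc7a5 and Mthfd2 the EV libraries sit below the RAS libraries, at 0.39 to 1.66 against 2.44 to 3.22 for Trib3, whereas the ratio to Psat1 stays between -0.26 and 0.40.

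In RAS-expressing cells, loss of S6K1 or of S6K1 and S6K2 was not accompanied by a called change of any of the 10 genes. In the S6K1 series 0 of 10 passed, against 0.00712% of all genes tested, and in the S6K1/S6K2 series 0 of 10, against 0.0216%. None of the 10 had an unadjusted p under 0.05 in either comparison, against 6.86% and 1.29% of all genes, and DESeq2 called 0 in each. With the replicate number as a block, which pairs S6K1 KO and WT libraries, the count in the S6K1 series was again 0, against 4.15% of all genes. The unadjusted p was then under 0.05 for 3 of the 10 genes (Phgdh, Shmt2 and Mthfd2), against 17.8% of all genes.
The 95% intervals below come from the fit without the block unless the block is named. For Asns the interval of the log2 fold change was -0.55 to 0.43 with loss of S6K1 and -0.30 to 0.44 with loss of both kinases, and for Atf4 it was -0.44 to 0.40 and -0.41 to 0.69. With the block, the intervals for loss of S6K1 were narrower, at -0.26 to 0.13 for Asns and -0.24 to 0.19 for Atf4. For Shmt2 the blocked interval was -0.36 to -0.041 and for Mthfd2 -0.36 to -0.0077, both below 0 although neither gene passed after adjustment (adjusted p = 0.174 and 0.262, edgeR). Trib3 was at 35.4, 25.7 and 20.2 CPM in KO RAS cells and at 17.5, 24.7 and 20.7 CPM in DKO RAS cells. These ranges met those of the WT RAS libraries in each series, with log2 fold changes of 0.10 (-0.50 to 0.71) and -0.26 (-1.10 to 0.58). The widest interval was that of Chac1 in DKO cells, from -0.96 to 1.57.
Phgdh had the largest difference with loss of S6K1. It was at 88.8, 63.2 and 34.5 CPM in KO RAS cells against 58.3, 39.1 and 39.4 CPM in WT RAS cells, which spans the WT range on both sides (log2 fold change 0.45, 95% interval -0.25 to 1.14, adjusted p = 0.997, edgeR). With the block it was 0.40 (0.022 to 0.77, adjusted p = 0.254). In DKO RAS cells it was at 66.3, 38.4 and 37.0 CPM against 64.6, 42.4 and 28.0 CPM in WT RAS cells, a log2 fold change of 0.07 (-0.66 to 0.80).
Atf4 at 246, 252 and 245 CPM in DKO RAS cells was above each WT RAS library, by a log2 difference of 0.14 (SE 0.25) that did not pass. The same held for Chac1, at 13.1, 15.0 and 15.3 CPM in DKO RAS cells (0.30, SE 0.57). These 2 of the 10 genes had no overlap there, and the share of all genes without overlap was not computed. No member passed the test of a difference in the change with loss between the series (0 called by edgeR, against 0.0069% of all genes tested), and 0 of the 10 had an unadjusted p under 0.05 there or a call by DESeq2, where 1.23% of all genes had such a p.

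The KO and DKO cells with RAS were also placed against the WT cells with EV, a contrast in which genotype and vector both differ and which shares its EV libraries with the comparison above. In the S6K1 series 1 of the 10 genes was called, against 18.1% of all genes, and this was Trib3 (log2 fold change -0.91, SE 0.27, adjusted p = 0.0442, edgeR). The call was lost when WT EV replicate 1 or 2, WT RAS replicate 1 or 2 or KO RAS replicate 2 or 3 was left out (adjusted p up to 0.135), in a fit of the 6 compared libraries alone and in a fit of all 18. Without KO RAS replicate 3, Phgdh was called in its place. With the replicate block 7 were called, against 41.1% of all genes. Asns, Psat1 and Phgdh were the 3 that were higher in KO RAS cells, and Trib3, Ddit3, Mthfd2 and Slc7a5 the 4 that were lower.
For DKO RAS cells 2 were called, against 25.7%, Trib3 (-1.70, SE 0.37, adjusted p = 0.0102) and Ddit3 (-1.12, SE 0.32, adjusted p = 0.0291). Trib3 was called whichever single library was left out. The Ddit3 call was lost without any 1 of the 3 DKO RAS libraries (adjusted p from 0.0675 to 0.0957) and in a fit of the 6 compared libraries alone, and its log2 fold change was -0.53 without WT EV replicate 1.

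Inside the groups, the levels of the 10 genes varied together from library to library. Over the 45 pairs of genes, the correlation of deviations from the group means across the 18 libraries was positive in every pair, with r from 0.459 for Ddit3 and Phgdh to 0.955 for Shmt2 and Mthfd2 and a median of 0.848. Over all pairs of 9574 genes the median was 0.0032 and the 95th percentile 0.734, which 31 of the 45 pairs exceeded. Without S6K1/S6K2 WT EV replicate 1 the lowest r was 0.305 and the median 0.796. These points share libraries and, within a replicate number, cultures of related origin, so r is a description.
Phgdh had the lowest mean r with the other 9 genes (0.619) and Ddit3 the next (0.708), and without that library the order was reversed (0.585 for Phgdh and 0.512 for Ddit3). The pairs Chac1 with Trib3 (r = 0.947) and Chac1 with Atf4 (r = 0.952) were among the closest.

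In 5 of the 6 groups the common deviation was highest in replicate 1. In the S6K1 series, all 10 genes were above their group mean in replicate 1 of every group, and replicate 3 was below it for all 10 in both WT groups and for 9 of 10 in KO RAS cells. Mean deviations over the 10 genes were 0.28, 0.24 and 0.34 on the log2 scale in the replicates 1 of WT EV, WT RAS and KO RAS. In the S6K1/S6K2 series, WT EV replicate 1 deviated by 0.69 and WT RAS replicate 1 by 0.24, while the DKO RAS libraries lay between -0.045 and 0.027.
Macrophage marker RNA moved with this deviation. In S6K1 WT EV cells the 12 markers summed to 3172, 2393 and 636 CPM in replicates 1, 2 and 3, and in S6K1/S6K2 WT EV cells to 1396, 158 and 205 CPM. Across the 18 libraries, r between the deviation of this sum and the mean deviation of the 10 genes was 0.836, or 0.786 without S6K1/S6K2 WT EV replicate 1. The sum was also lower in every KO RAS library, at 242 to 850 CPM, than in the WT RAS library of the same number, at 723 to 3679 CPM. In the S6K1/S6K2 series it was 73.5 to 234 CPM in DKO RAS libraries and 176 to 1010 CPM in WT RAS libraries. All 12 markers were above 1 CPM in every library of 5 groups and 8 of 12 in every DKO RAS library, and no defining marker was at 0 throughout a group. The part of these cells in the deviations, and in the comparisons of RAS with EV and of KO or DKO with WT cells, was not tested.

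**Figure D4:**
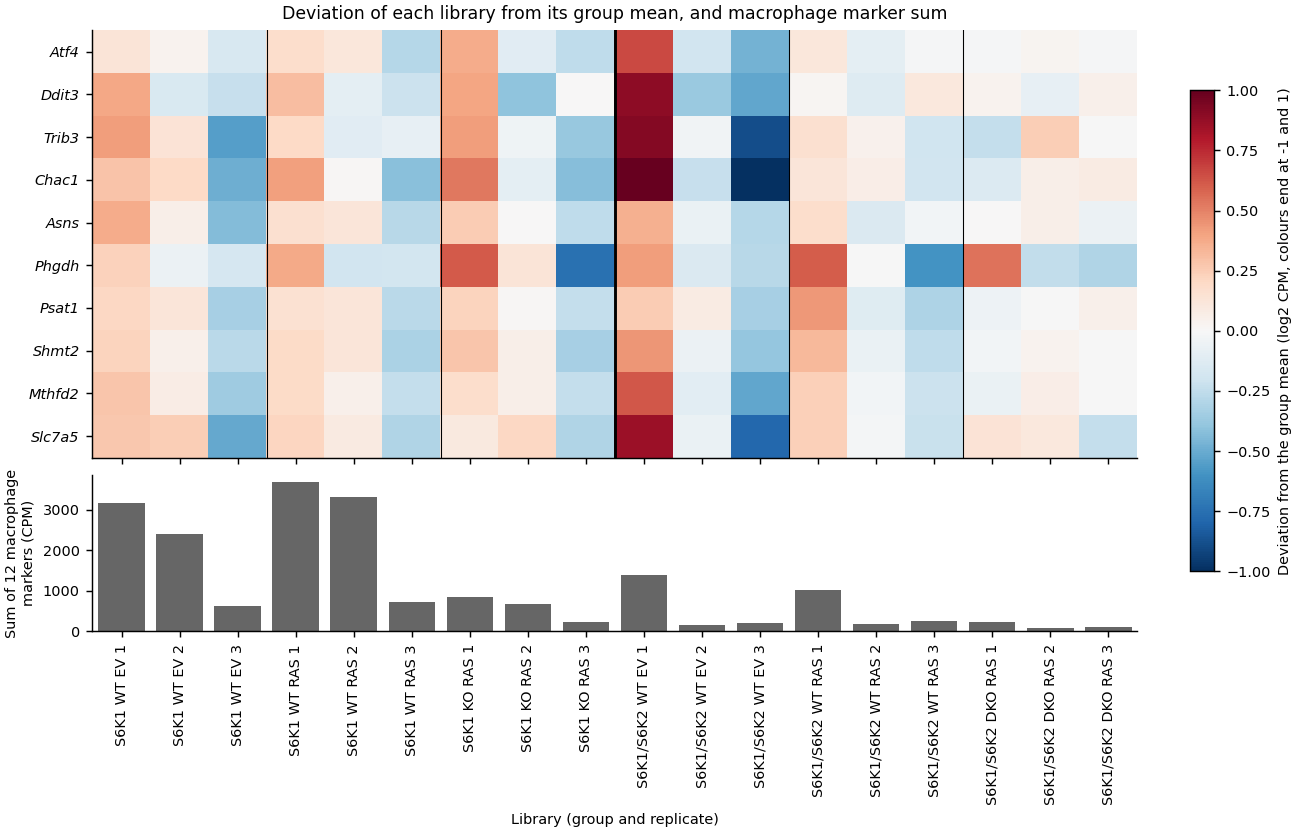
Upper panel, deviation of each library from its group mean (colour, log2 CPM) for the 10 genes in the 18 libraries, with thin lines between groups and a thick line between series. Lower panel, the summed level of 12 macrophage markers in CPM, from 0. All 10 genes are above their group mean in replicate 1 of the 3 S6K1 groups, and the marker sum is highest at 3679 CPM in S6K1 WT RAS replicate 1.

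Among 9453 other genes of at least 10 CPM, those most like the mean of the 10 over the 18 libraries were Raly (r = 0.969), Atf5 (0.969), Lgals3 (0.962), Slc3a2 (0.958) and Ifrd1 (0.954). Atf5 encodes a bZIP factor of the ATF4 family, and Slc3a2 the heavy chain that joins the Slc7a5 product in its exchanger. Cotl1 (r = 0.956), Plekhf2, Mid1ip1, Atf5 and Hspa9 (r = 0.942) were closest to Asns. For Phgdh the list was different, led by Rnf10 (r = 0.948), Slc35e4, Prpf19, U2af2 and Ppp2r1a (r = 0.924).

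Other genes of the pathway were counted from 7 lists, to be read against the 13.2% of all genes called with RAS in the S6K1 series and 26.3% in the S6K1/S6K2 series. With RAS in WT cells, members of most lists went both ways. In the S6K1 series no list had more than 3 called genes, and in the S6K1/S6K2 series the called genes were mostly higher among the 19 genes of the list of aminoacyl-tRNA synthetases and the tRNA exporter Xpot (6 higher and 1 lower) and among 15 stress and feedback targets (7 higher and 1 lower). The median log2 fold changes of these lists were 0.14 and 0.60 there, and 0.15 and 0.034 in the S6K1 series, where 2 rose and 1 fell of the first list and none of the second was called. These are counts without the block. With it, the S6K1 series had 8 higher and 3 lower in the first list and 3 higher and 4 lower in the second, where 36.2% of all genes were called. The difference between the series in these counts was not tested.
Among amino acid transporters, Slc1a4, which carries serine and alanine, fell in both series. It was at 63.4, 66.7 and 66.8 CPM with EV and 30.3, 35.4 and 34.5 CPM with RAS in S6K1 WT cells, where the groups were far apart and replicates of EV nearly the same (log2 fold change -0.97, SE 0.11, adjusted p = 0.000788, edgeR). The other series gave -1.42 (SE 0.25, adjusted p = 0.00384), and both calls held whichever library was left out. Slc1a5, a glutamine carrier, was called in the S6K1/S6K2 series (-1.73, adjusted p = 0.0276), at 161, 58.4 and 34.6 CPM with EV, and it was lost without WT EV replicate 1 (-0.87, adjusted p = 0.0583) or any 1 of the WT RAS libraries (adjusted p from 0.0521 to 0.0987). Without the block, 1 of 12 transporters was called lower in the S6K1 series and 2 of 12 in the S6K1/S6K2 series, with none higher. With it, 1 was higher and 5 were lower in the S6K1 series, against 36.2% of all genes. In the S6K1/S6K2 series 0 were then higher and 2 lower, against 28.7%.
Of the serine, one-carbon and proline genes, Aldh1l2, a mitochondrial folate dehydrogenase, was at 81.6, 126 and 69.8 CPM with EV and 28.3, 44.2 and 42.8 CPM with RAS in S6K1 WT cells, without overlap. It fell by 1.27 (SE 0.27, adjusted p = 0.0153) there and by 1.62 (SE 0.34, adjusted p = 0.00812, edgeR) in the S6K1/S6K2 series on the log2 scale. The first of these calls was lost without S6K1 WT EV replicate 2 (adjusted p = 0.0524) or WT RAS replicate 1 (adjusted p = 0.0554). Shmt1, the cytosolic counterpart of Shmt2, was lower in the S6K1/S6K2 series (-1.39, SE 0.27, adjusted p = 0.00592), at 22.2, 15.1 and 11.1 CPM with EV and 7.02, 6.07 and 5.37 CPM with RAS. Without the block, the list had 1 called higher and 2 lower of 15 in the S6K1 series and 1 higher and 3 lower of 14 in the S6K1/S6K2 series. The higher gene in that fit was Gldc, of the glycine cleavage system, in both series, at a level of at most 2.0 CPM. With the block, 4 were higher and 2 lower in the S6K1 series, and 2 higher and 3 lower in the S6K1/S6K2 series.

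The bZIP partners changed in both directions. Atf5 was at 383, 320 and 255 CPM with EV and 206, 183 and 153 CPM with RAS in S6K1 WT cells, and at 377, 261 and 218 CPM against 154, 111 and 114 CPM in S6K1/S6K2 WT cells. The groups were apart in each series, with log2 fold changes of -0.82 (SE 0.20, adjusted p = 0.0234) and -1.18 (SE 0.21, adjusted p = 0.00346, edgeR). The first was lost without S6K1 WT EV replicate 1 or 2 or WT RAS replicate 2 or 3 (adjusted p from 0.0616 to 0.0876). Nupr1, a small stress-induced chromatin protein, was at 88.0, 61.3 and 80.4 CPM with EV and 200, 201 and 241 CPM with RAS in S6K1/S6K2 WT cells. It rose by 1.48 on the log2 scale (SE 0.16, adjusted p = 0.000403), and Nfe2l2, the NRF2 gene, rose in both (0.64 and 0.69, adjusted p = 0.0225 and 0.00205). The Nfe2l2 call in the S6K1 series was lost without WT EV replicate 2 or 3 or WT RAS replicate 1 or 2 (adjusted p from 0.0745 to 0.0871).
Of the eIF2α kinases and phosphatase subunits, Eif2ak4, which encodes the amino acid sensor GCN2, was higher with RAS in the S6K1/S6K2 series, at 25.7, 30.9 and 36.5 CPM with EV and 47.4, 59.5 and 53.2 CPM with RAS (log2 fold change 0.78, SE 0.16, adjusted p = 0.00763). It was the 1 called gene of 7 there, and 0 of 7 were called in the S6K1 series (DESeq2 also 0, and 1 with the replicate block). Of the 10 genes in the chaperone and folding list, Herpud1 was the 1 with the composite word in its promoter window. In the fit without the block it fell in both series (-0.57, adjusted p = 0.0244, and -1.17, adjusted p = 0.0133, edgeR) and no other gene of the list was called. With the block, 2 were higher and 2 lower in the S6K1 series, and 0 higher and 1 lower in the S6K1/S6K2 series. The unblocked Herpud1 call in the S6K1 series was lost without WT EV replicate 1 or 2 or WT RAS replicate 2 or 3 (adjusted p from 0.0648 to 0.108). That in the S6K1/S6K2 series was lost without WT RAS replicate 2 (adjusted p = 0.0599).
Between KO and WT or DKO and WT cells with RAS, 0 genes of the 7 lists were called. DESeq2 also called 0 of them, and the replicate block called 4 in the S6K1 series, against 4.15% of all genes.

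**Figure D5:**
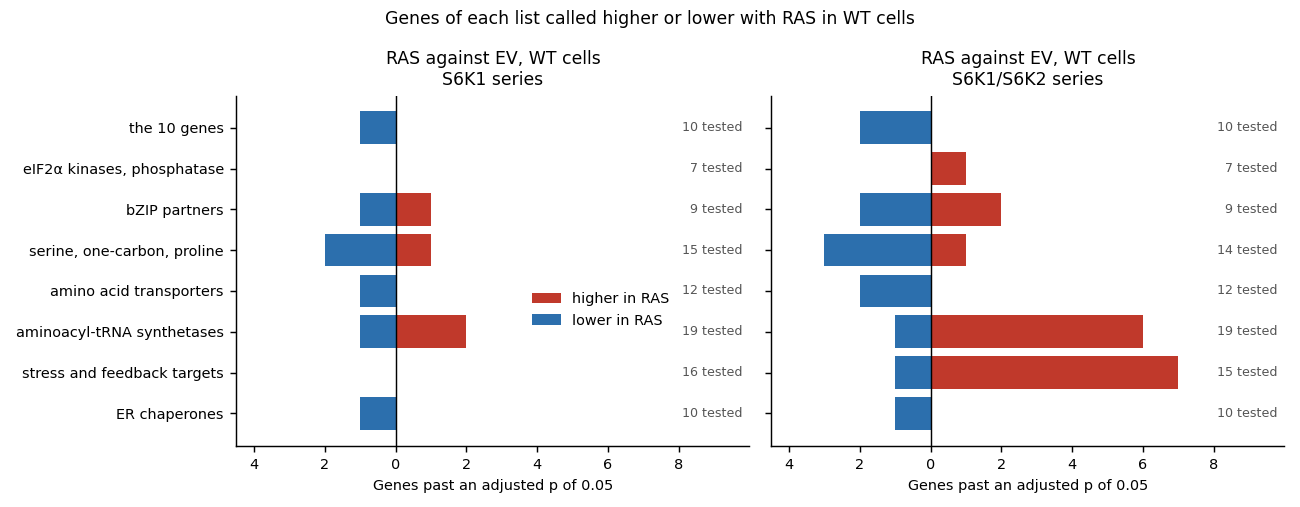
Number of genes per list called higher (right of 0) or lower (left of 0) with RAS in WT cells at an adjusted p of 0.05, with the number tested at the right of each row. In the S6K1/S6K2 series 7 stress and feedback targets and 6 genes of the tRNA synthetase list are called higher, against 0 and 2 in the S6K1 series, in the fit without the replicate block (3 and 8 with it).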

How the data were processed

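Poly(A) RNA of 18 MEF cultures was made into stranded libraries and sequenced as single-end reads. The authors deposited 1 table of raw read counts per gene for all 18 libraries, with no normalization. The study's methods name TopHat and HTSeq with mm9, whereas the submitters' processing notes name STAR 2.7.1a, DESeq2 1.28.1 and mm10. Of the 55401 identifiers, 22812 were not in the mm9 gene annotation used here, so gene and promoter coordinates were taken from RefSeq on GRCm38.p6. Symbols were found for 32589 identifiers, which hold 99.14% of the counts.

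Each series of 9 libraries was fitted separately in edgeR 4.0.16 (R 4.3.3), with a term for the group, filterByExpr with a minimum count of 10, TMM scaling, and the quasi-likelihood test adjusted by Benjamini-Hochberg over all genes (threshold 0.05). Differences between the series were interaction contrasts over the 18 libraries. Levels are TMM-scaled CPM within a series, and lengths are union exon lengths from the mm9 gene annotation. Standard errors and 95% intervals were derived from the quasi-likelihood F. The fit was tested on simulated counts. Libraries of 1 group are cultures of separate embryos, per the study's methods, whereas the WT EV and WT RAS libraries of 1 number carry the same WT number in the labels and so appear to share an embryo, which the fit without the block ignores. Within groups, no pair of replicates was as alike as sampling noise alone would give (lowest chi-square per degree of freedom 7.98). Precision is limited by 3 libraries per group and by depths of 8319445 to 14402442 counts.

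Replicate numbers come from the labels. Deviations from the group means over 13550 genes correlated within every same-numbered pair for RAS and EV (r = 0.685, 0.440 and 0.646 in the S6K1 series, and 0.374, 0.289 and 0.317 in the S6K1/S6K2 series), for S6K1 KO and WT (0.706, 0.406 and 0.613) and for S6K1 KO RAS and WT EV (0.658, 0.517 and 0.502), and these were treated as paired in a fit with the number as a block. For the DKO libraries the number was taken as a name only, although the block was also fitted over all 9 libraries of that series.

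Alternatives were the replicate block, DESeq2 1.42.0, its size factors in edgeR, no filter, other sets of libraries and each library left out. The fit of the 6 compared libraries with the block, and the co-variation without 1 library, were chosen after seeing the data. The 10 genes and all gene lists were chosen with earlier results of these data known. Besides the 10 genes and the label checks, the rule for naming took at most 2 called genes from either end of the range of log2 fold changes in each pathway list and comparison, and the 5 genes most correlated with Asns, with Phgdh and with the mean of the 10.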

Additional observations from a re-analysis of the deposited data

How the results depend on the processing

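Of 1400 gene values under the alternatives, 1253 kept their direction and side of the threshold. Another 46 passed the threshold newly and 31 no longer passed. A further 70 changed direction without being called in either fit, and 0 changed direction while called. The cause of each change was not tested. For RAS against EV in the S6K1 series, 1 of the 10 genes was called, with 6 under the replicate block, 7 under the block with the 6 compared libraries only, 0 in 1 fit of all 18 libraries and 0 to 1 with 1 library left out. For KO RAS against WT EV the count of 1 became 7 with the replicate block, 7 with the block and 6 libraries, 2 with DESeq2, 2 with no filter, 0 with the 6 compared libraries, 0 with all 18, and 0 to 1 with 1 library left out. Over all genes, the block called 5766 of 14036, the block with 6 libraries 5533 of 13669 and DESeq2 3171 of 14036. No filter gave 2731 of 27614, the 6 libraries 2151 of 13669 and all 18 gave 2578 of 14483. In the S6K1/S6K2 series, RAS against EV had 2 called genes, with 5 under no filter, 1 with the 6 libraries, 1 with the block and 6 libraries, and 0 to 6 with 1 library left out. For DKO RAS against WT EV the count of 2 became 5 with no filter, 1 with the 6 libraries, 0 with the block and 6 libraries, and 1 to 5 with 1 library left out.

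Over all genes, the replicate block moved the called count from 1859 to 5085 for RAS against EV in the S6K1 series (1043 to 1919 with 1 library left out), from 2542 to 5766 for KO RAS against WT EV (1325 to 2848) and from 1 to 583 for KO against WT. The last was 63 with DESeq2, 108 with no filter, 0 with the 6 libraries, 4 with all 18 and 0 to 22 with 1 library left out. For DKO against WT the count of 3 was 8 with the replicate block, 10 with DESeq2, 11 with no filter, 7 with all 18 and 1 to 3 with 1 library left out. With 1 library left out, WT RAS against WT EV cells of the S6K1/S6K2 series ranged from 2050 to 4199 and DKO RAS against WT EV from 1999 to 4044, and the latter was 1943 with the block and 6 libraries. The difference of the RAS effects had 0 calls, with 1819 genes at an unadjusted p under 0.05 by edgeR, 58 with the block, 143 with DESeq2, 204 with no filter and 0 to 290 with 1 library left out.

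The DKO numbers are shared in name only (r = 0.274, 0.471 and -0.0332 with WT RAS and 0.190, 0.299 and -0.117 with WT EV), and not every library correlated best with its own number. With that block, 0 of the 10 genes were called for DKO against WT and 3 for DKO RAS against WT EV, where Asns was added as higher. Over all genes it called 8 of 13881 and 3931 of 13881 in these comparisons.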
